A study of Mus musculus with 6 samples.

Results

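The Wnt ligand genes and the genes of the receptors that bind them were followed in mouse embryonic fibroblasts of 2 genotypes. Members were taken by symbol: every gene named Wnt, with its number and letter, every numbered Frizzled gene (Fzd), the co-receptor genes Lrp5 and Lrp6, and the receptor tyrosine kinase-like genes Ror1, Ror2 and Ryk. This gave 34 of the 49315 genes in the deposited table, made up of 19 ligands and 15 receptors. The cells were grown from mid-gestation embryos (E13.5) that were either wild type (Acvr1+/+) or carried 1 copy of the R206H allele of Acvr1 (Acvr1R206H/+). The Acvr1 protein (ALK2) is a cell-surface kinase that relays BMP signals, and R206H is the change that underlies most cases of FOP, a disease in which muscle and connective tissue turn to bone. All cells were kept in DMEM with 10% serum and sampled at passage 0 after 2 days in culture, as 3 libraries per genotype, called wild-type and R206H libraries 1, 2 and 3 here. The design text calls them biological replicates. Whether they came from separate embryos or litters, and the sex of the embryos, is not given in the sources used here, so the p-values measure only the spread between these libraries. The submitters' stated aim was to find RNA differences brought by the mutant allele.

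Wnt proteins are secreted lipid-modified signals. In the canonical branch a Wnt joins a Frizzled receptor to Lrp5 or Lrp6, beta-catenin is spared from destruction, and TCF/LEF factors switch on target genes. In the other branches, typified by Wnt5a, signals pass through Frizzled with Ror1, Ror2 or Ryk to the cytoskeleton and to cell polarity, and both kinds of signal shape limb mesenchyme, cartilage and bone in the embryo.

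Values are TPM (transcripts per 1000000), in which read counts are divided by gene length, so levels of different genes can be set side by side. From the values, the libraries held about 17.5 to 24.6 x 1000000 assigned reads or read pairs. The labelled cell type was borne out by markers of mesenchyme (Col1a1, Pdgfra, Prrx1 and 9 others), all 12 of which were expressed, with summed levels of 9608, 8272 and 7443 TPM in wild-type libraries 1, 2 and 3 and 11265, 12450 and 13995 TPM in the R206H libraries. The cultures also held epithelial transcripts. The 12 epithelial markers, none of which was at 0 in all libraries, summed to 637, 545 and 638 TPM in wild type and 399.7, 288 and 197 TPM in R206H. Their leading gene was Krt19. Globin genes Hbb-bt and Hba-a1 were at 0 in all 6 libraries, and marker sums for endothelium, macrophages, skeletal muscle and cartilage (led by Kdr, Lyz2, Des and Col2a1) overlapped between the genotypes. Skeletal muscle markers summed to 435 to 652 TPM in wild type and 339 to 706 TPM in R206H. Cartilage markers summed to 155 to 352 TPM in wild type and 229 to 342 TPM in R206H. Wild-type library 1 and R206H library 3 had the lowest weights, 0.55 and 0.483, when libraries were weighted by how far they stood from their group.

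Silent members were found only among the ligands. A gene counted as expressed if 3 or more libraries reached 1 TPM, as silent if all 6 stayed under 0.1 TPM, and as low otherwise. All 15 receptors were expressed, and of the 19 ligands 12 were expressed, 3 were low and 4 were silent. The silent ligands were Wnt3a, Wnt8a, Wnt8b and Wnt9b, which are known from the early embryo, the nervous system and epithelia. Wnt3a was at 0 in every library, and Wnt8a, Wnt8b and Wnt9b each rested on 1 read in 1 library. A count of 0 reads allows up to 0.161 to 0.23 TPM of Wnt3a (3 reads, counting error only), so a level below that was not detectable at this depth. The low ligands Wnt1, Wnt3 and Wnt6 each came near or above 1 TPM in at least 1 library but not in 3.

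**Figure D1:**
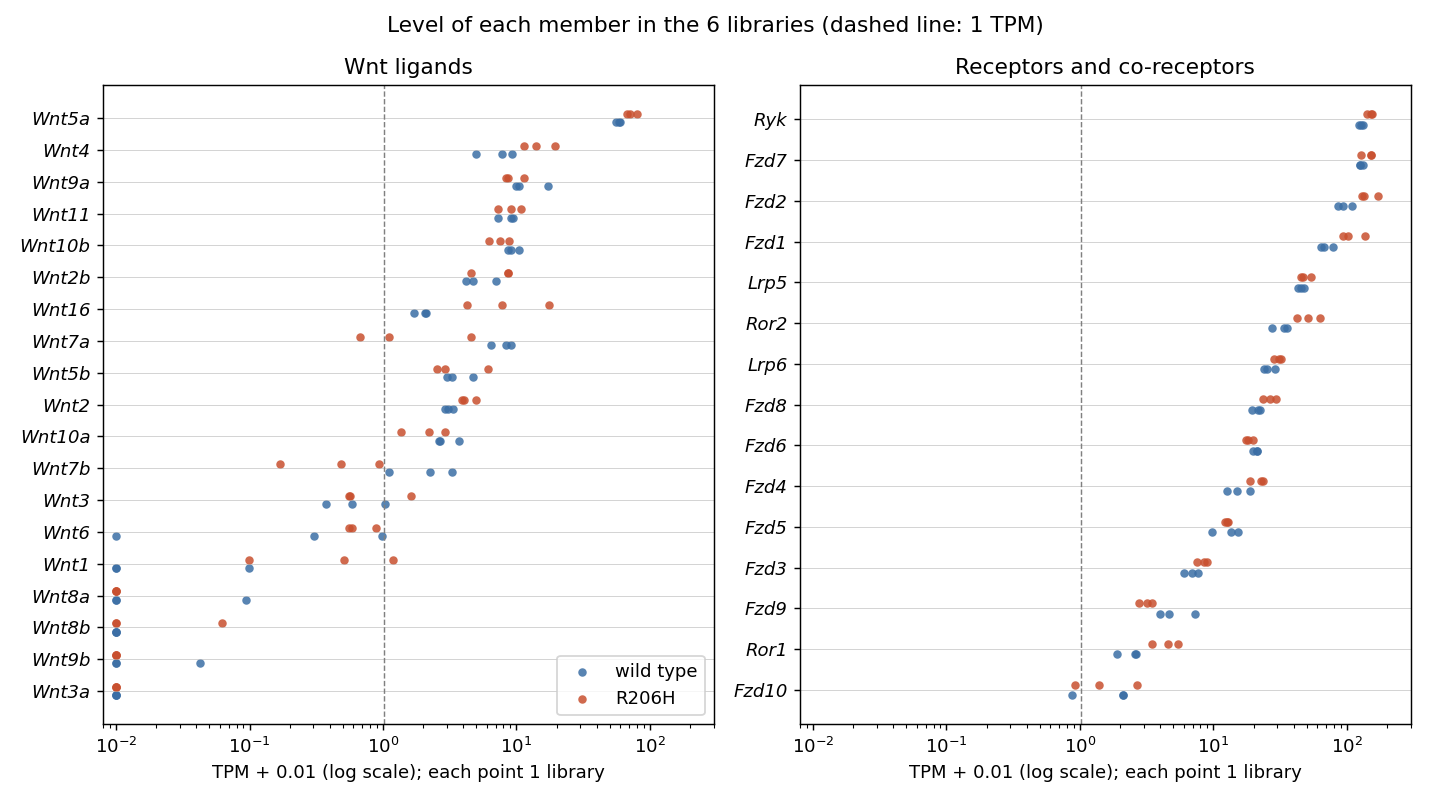
Level of all 34 members in the 6 libraries, as TPM + 0.01 on a log axis, ligands on the left and receptors on the right, each ordered by mean. Each point is 1 library. All receptors lie around or above the dashed line at 1 TPM, while 7 ligands lie mostly below it.

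Ligands of different classes lay side by side in the genome. The 19 Wnt genes include 4 pairs less than 100000 bp apart, and in each the members differed in class or level (positions from GENCODE M21, GRCm38). Silent Wnt3a (chr11:59248033-59290752, minus strand) and expressed Wnt9a (chr11:59306928-59333552, plus strand) are 16.2 kb apart, and Wnt9a ran from 8.32 to 17.1 TPM where Wnt3a was at 0. Expressed Wnt10b (6.25 to 10.5 TPM) lies 11.7 kb from Wnt1 (0 to 1.18 TPM). Expressed Wnt10a (1.36 to 3.71 TPM) lies 6.2 kb from Wnt6 (0 to 0.967 TPM), and silent Wnt9b lies 24.3 kb from Wnt3 (0.366 to 1.6 TPM).

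The 250 bases upstream of the annotated starts, from RefSeq on GRCm38.p6, are shown for 4 ligands, on the strand of the gene and with each CpG in capitals. The neighbours Wnt3a and Wnt9a are shown because 1 is silent and the other expressed, and Wnt16 and Wnt7a because their differences between the genotypes on the log2(TPM + 1) scale were the largest among tested members in each direction.
Wnt3a (chr11:59290752-59291001, minus strand): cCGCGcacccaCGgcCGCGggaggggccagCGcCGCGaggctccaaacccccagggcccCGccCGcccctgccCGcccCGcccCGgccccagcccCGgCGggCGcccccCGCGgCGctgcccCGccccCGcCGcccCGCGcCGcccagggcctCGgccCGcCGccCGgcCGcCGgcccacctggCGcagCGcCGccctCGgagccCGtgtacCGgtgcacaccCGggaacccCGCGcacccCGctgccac
Wnt9a (chr11:59306680-59306929, plus strand): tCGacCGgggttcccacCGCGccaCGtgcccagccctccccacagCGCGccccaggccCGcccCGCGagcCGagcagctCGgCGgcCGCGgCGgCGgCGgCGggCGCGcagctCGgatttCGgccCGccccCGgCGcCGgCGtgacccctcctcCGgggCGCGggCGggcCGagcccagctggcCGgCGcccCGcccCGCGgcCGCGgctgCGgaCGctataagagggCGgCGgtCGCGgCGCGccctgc
Wnt16 (chr6:22287977-22288226, plus strand): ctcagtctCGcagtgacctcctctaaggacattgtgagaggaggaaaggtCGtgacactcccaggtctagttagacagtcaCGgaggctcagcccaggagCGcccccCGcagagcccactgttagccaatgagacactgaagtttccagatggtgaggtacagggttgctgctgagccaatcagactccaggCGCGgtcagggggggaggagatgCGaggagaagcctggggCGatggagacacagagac
Wnt7a (chr6:91411354-91411603, minus strand): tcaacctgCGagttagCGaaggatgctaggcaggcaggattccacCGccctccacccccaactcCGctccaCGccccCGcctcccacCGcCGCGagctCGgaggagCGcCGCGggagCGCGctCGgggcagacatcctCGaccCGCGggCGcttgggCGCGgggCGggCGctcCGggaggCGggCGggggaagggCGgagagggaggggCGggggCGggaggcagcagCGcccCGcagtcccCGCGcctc
The windows of Wnt3a and Wnt9a held 41 and 48 CpGs, so the silent and the expressed neighbour were alike dense in them. That of Wnt7a held 34 and that of Wnt16 only 9. Windows were available for 24 members, 27 windows in all, with a median of 24 CpGs against 6 over all 32851 windows. The median was 25 in the 21 windows of expressed members and 22 in the 3 of silent ones. The TCF/LEF core CTTTGAT, on either strand, was in 2 of the 27 windows (3.2% of all windows), in Wnt11 and the most downstream start of Wnt5b. The GC-rich element GGCGCC, bound by BMP-activated SMADs in some genes, was in 10 of 27 (9.59% of all windows) and the SMAD palindrome GTCTAGAC in none (0.167% of all windows). None of these motifs contains another. GGCGCC was in the windows of Wnt2, Wnt2b, Wnt4, Wnt9a, Wnt11, Wnt3a, Fzd4, Fzd9, Fzd10 and Ror2. These are matches of letters in GC-rich windows and not shown sites.

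Among the ligands, Wnt5a, the archetype of non-canonical signalling, stood alone at the top. It ranged from 55.8 to 79.6 TPM, and its lowest library was above the highest of Wnt4, the next ligand by mean, at 19.6 TPM. Wnt5a made up 43, 50.8 and 46.7% of all ligand TPM in the wild-type libraries and 49.3, 51.2 and 49.3% in the R206H libraries, so its share overlapped between the genotypes. Below it, Wnt4, Wnt9a, Wnt11, Wnt10b, Wnt2b, Wnt16, Wnt7a, Wnt5b, Wnt2, Wnt10a and Wnt7b followed in order of mean, and the 6-library ranges of neighbours in that order overlapped in all 10 pairs. Wnt5b, the close relative of Wnt5a, had 2.51 to 6.16 TPM, and Wnt5a exceeded it by 12.4 to 26.9 times.

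Among the Frizzleds, the closely related Fzd7, Fzd2 and Fzd1 were the most abundant, and their ranges overlapped one another but not that of the next, Fzd8. Together they took 79.3, 77.3 and 76.3% of Frizzled TPM in wild type and 81.4, 80.4 and 81.8% in R206H. Fzd8, Fzd6, Fzd4 and Fzd5 lay between 9.81 and 29.3 TPM, and Fzd3, Fzd9 and Fzd10 were lowest, with Fzd10 at 0.864 to 2.65 TPM. Ryk, a pseudokinase receptor for Wnts, had the highest mean of all members, at 123 to 155 TPM. Ror2 was expressed at 9.18 to 18.8 times the level of Ror1, and Lrp5 at 1.46 to 1.79 times that of Lrp6. Ranges did not overlap in either pair.

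Between the genotypes, the members with the smallest p-values were mostly higher in R206H: the non-canonical ligand gene Wnt5a with its receptor genes Ror2, Ror1 and Ryk, the Frizzled genes Fzd1 and Fzd2, and the ligand genes Wnt16 and Wnt4. The ligand gene Wnt7a was lower. None of these differences passed the test over all genes. Of the 27 expressed members, 0 had a limma p under 0.05 after Benjamini-Hochberg adjustment, against 2.04% of all 14818 genes tested (1.26% higher and 0.79% lower), and the smallest adjusted p was 0.0618. At an unadjusted p under 0.05 there were 15 of 27 (55.6%), 12 higher and 3 lower, against 26.1% of all genes (14.4% higher and 11.7% lower). At an adjusted p under 0.10 there were 9, 8 higher and 1 lower, against 12.1% (6.9% higher and 5.16% lower). One tested member, Wnt7b, reached 1 TPM in the wild-type libraries only and the filter itself chose it for being higher there. Without it, 14 of 26 had an unadjusted p under 0.05, 12 higher and 2 lower, and 9 an adjusted p under 0.10. The test on read counts rebuilt from TPM, limma voom, called 7 of 27 (25.9%), namely Fzd1, Fzd2, Ror1, Ror2, Wnt4 and Wnt5a higher and Wnt7a lower, against 8.73% of 14785 genes (4.61% higher and 4.12% lower).

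The genotypes did not overlap in 13 of 27 members (48.1%), with all R206H libraries higher in 10 and lower in 3, against 32.9% of all genes, 17.9% higher and 15% lower. Without Wnt7b it was 12 of 26, 10 higher and 2 lower. The difference in log2(TPM + 1), R206H minus wild type, was positive in 18 (66.7%, against 53.6% of all genes) and negative in 9, or 17 and 10 under each of the 3 other scalings, where Wnt5b turned negative. The added 1 makes differences of weakly expressed genes look smaller. Its median was 0.23 over the 27 members and 0.022 over all genes. R206H library 3 held the highest value of 12 members and R206H library 2 of 6. Over all genes tested, R206H library 3 held the highest value in 30.7% and R206H library 2 in 13.3%. Without R206H library 1, limma called 5 members, Fzd1, Ror2, Wnt5a and Wnt16 higher and Wnt7a lower, against 4.87% of all genes. Without any other single library it called no member, and over all 14818 genes it then called 288 without wild-type library 1, 5 without wild-type library 2, 1 without wild-type library 3, 0 without R206H library 2 and 1 without R206H library 3.

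**Figure D2:**
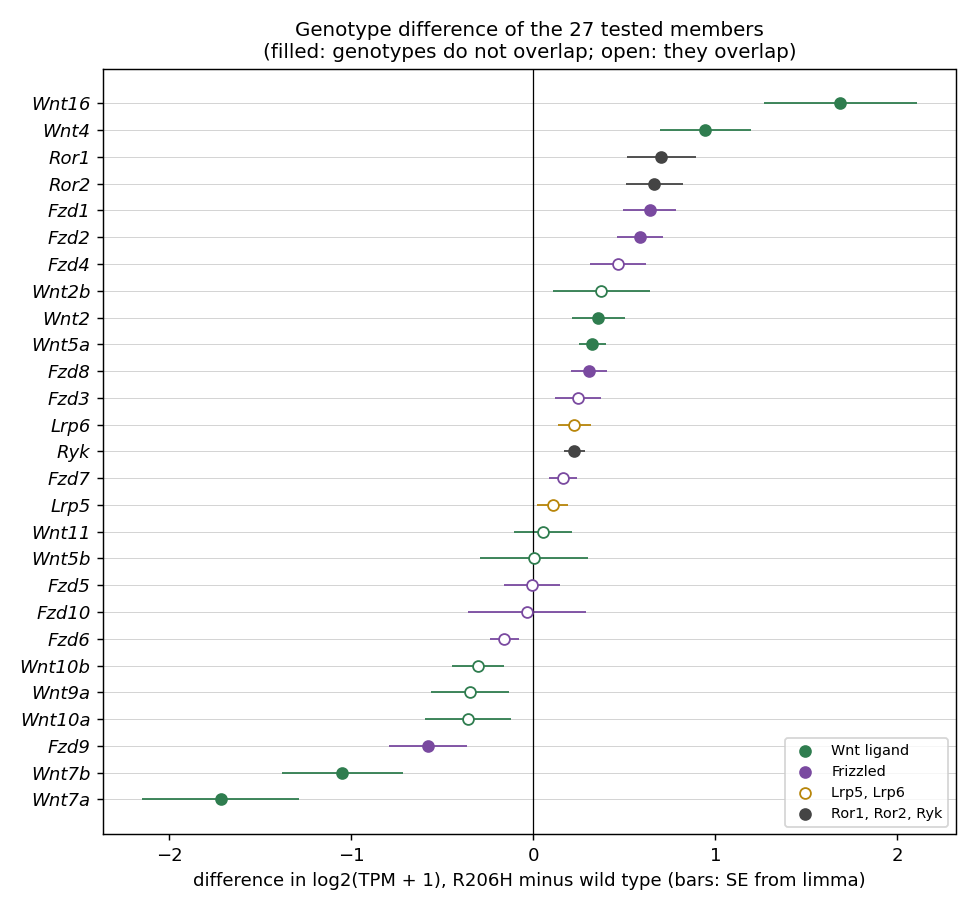
Difference in log2(TPM + 1), R206H minus wild type, for the 27 expressed members, with bars of 1 SE from limma. Filled points mark members whose genotypes did not overlap, 10 to the right of 0 and 3 to the left (Wnt7b was tested through its wild-type level alone), and no member passed an adjusted p of 0.05.

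Wnt5a (chr14:28504750-28527448, plus strand) had 58.6, 59.2 and 55.8 TPM in wild-type libraries 1, 2 and 3 and 67.6, 71.5 and 79.6 TPM in R206H libraries 1, 2 and 3. All R206H values were above all wild-type values, and the wild-type libraries lay close together. The mean was 72.9 ± 6.09 against 57.9 ± 1.84 TPM (SD, n = 3), 1.26 times, with a log2 difference of 0.32 (SE 0.0729, limma adjusted p = 0.0638, voom adjusted p = 0.0388). Of its exon bases, 4.58% are shared with the antisense gene Gm2670, which reached at most 4.2 TPM, and without the strand setting their reads cannot be told apart.

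Its receptor genes followed the same pattern. Ror2, a receptor tyrosine kinase required for limb and skeletal growth, had 33.5, 35.6 and 27.5 TPM in wild type and 42.2, 51.2 and 62.6 TPM in R206H. The genotypes did not overlap, and R206H library 3 was highest. The ratio of means was 1.61 and the log2 difference 0.66 (SE 0.156, limma adjusted p = 0.0671, voom adjusted p = 0.035). Its relative Ror1 had 2.61, 1.9 and 2.57 TPM in wild type and 4.6, 5.43 and 3.48 TPM in R206H. Here R206H library 2 was highest and library 3 lowest of the R206H libraries, unlike Ror2, and the groups again did not overlap. The ratio of means was 1.91 (log2 difference 0.70, SE 0.19, limma adjusted p = 0.0847, voom adjusted p = 0.0439). Ryk had 128, 133 and 123 TPM against 142, 155 and 151 TPM, a small shift with no overlap, at 1.17 times (log2 difference 0.23, SE 0.0573, limma adjusted p = 0.0762, voom adjusted p = 0.0778). The summed level of these 3 genes was 206.1 ± 14.9 TPM in R206H and 162 ± 8.93 TPM in wild type (SD, n = 3). Beside these genes, the summed mesenchymal markers were also higher in every R206H library, at 11265 to 13995 TPM against 7443 to 9608, with 11 of 12 higher in mean. Limma called none of them and voom called 7, all higher, against 4.61% of all genes called higher by voom. Their part in the differences was not tested. In bulk RNA, fewer or more cells of a type and less or more RNA per cell cannot be told apart.

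Wnt16, a ligand of bone-forming cells and of the joint, had the largest positive difference on the log2(TPM + 1) scale among the tested members. It had 2.09, 2.07 and 1.7 TPM in wild-type libraries 1, 2 and 3 and 4.24, 7.75 and 17.6 TPM in R206H libraries 1, 2 and 3. The wild-type libraries were nearly equal, while the R206H libraries spread over a wide range with no overlap with wild type. The mean was 9.87 ± 6.94 against 1.95 ± 0.222 TPM (SD, n = 3), or 5.06 times, and 3.07 times without R206H library 3. The log2 difference was 1.69 (SE 0.42, limma adjusted p = 0.0737, voom adjusted p = 0.0643). Without R206H library 1, the R206H library nearest wild type, it was 2.12 with a limma adjusted p = 0.0319. Without any other single library the limma adjusted p was 0.102 to 0.21. The values rested on an estimated 43, 61 and 46 reads in wild type and 108, 161 and 437 in R206H, so counting error is small beside the spread of the R206H libraries. Wnt16 took 1.53, 1.77 and 1.42% of ligand TPM in wild type and 3.09, 5.55 and 10.9% in R206H. Across R206H libraries 1, 2 and 3, mesenchymal markers summed to 11265, 12450 and 13995 TPM and epithelial markers to 399.7, 288 and 197 TPM, in the same and the opposite order as Wnt16, and their part was not tested.

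Wnt4, a ligand of kidney, gonad and joint development, had 9.25, 7.75 and 4.98 TPM in wild type and 11.3, 14.1 and 19.6 TPM in R206H. All R206H libraries were above all wild-type libraries, with library 3 highest in R206H and lowest in wild type. The mean was 15 ± 4.2 against 7.33 ± 2.17 TPM (SD, n = 3), 2.05 times (log2 difference 0.94, SE 0.251, limma adjusted p = 0.0821, voom adjusted p = 0.042). Wnt2, which acts in lung and vascular development, had 2.91, 3.08 and 3.35 against 3.87, 4.93 and 4.06 TPM. It too did not overlap, but by a narrow margin (log2 difference 0.36, limma adjusted p = 0.178).

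**Figure D3:**
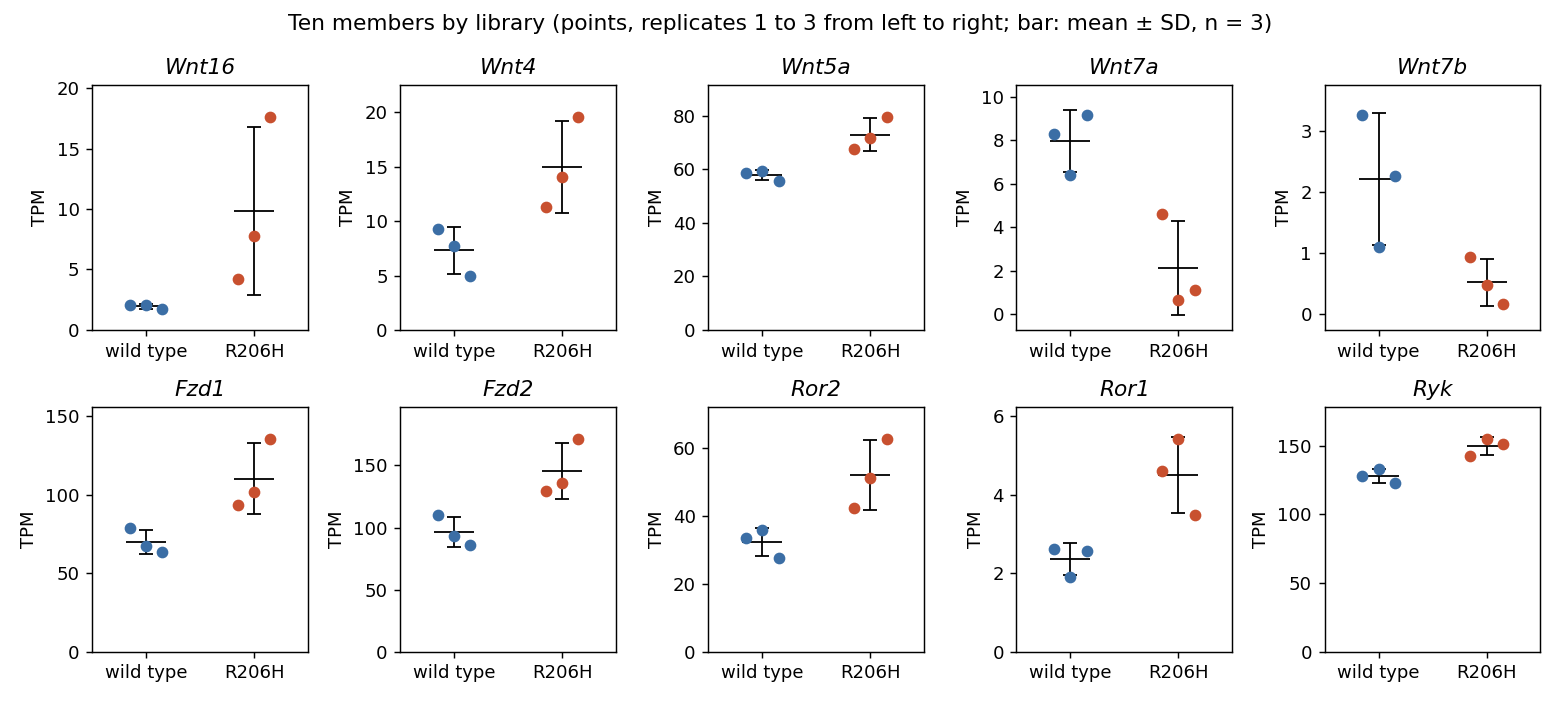
TPM of 10 members in each library on linear axes, with points for replicates 1 to 3 of each genotype and the mean ± SD (n = 3). R206H points lie above wild type for Wnt16, Wnt4, Wnt5a, Fzd1, Fzd2, Ror2, Ror1 and Ryk, and below it for Wnt7a and Wnt7b.

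Wnt7a and Wnt7b, closely related ligands made mainly by epithelia and the nervous system, ran the other way. Wnt7a had 8.29, 6.38 and 9.17 TPM in wild-type libraries 1, 2 and 3 and 4.58, 0.662 and 1.11 TPM in R206H libraries 1, 2 and 3. Every R206H library was below every wild-type library, and R206H library 1 stood between the wild-type libraries and the other R206H libraries. Wild type was 3.75 times R206H by mean, and 8.98 times without R206H library 1. The log2 difference was -1.72 (SE 0.433, limma adjusted p = 0.0755, voom adjusted p = 0.0312). Without R206H library 1, the R206H library nearest wild type, it was -2.24 with a limma adjusted p = 0.019. Without any other single library the limma adjusted p was 0.115 to 0.22. Wnt7b had 3.27, 1.11 and 2.26 TPM in wild type and 0.93, 0.476 and 0.159 TPM in R206H, again with no overlap but with a small gap. By mean, Wnt7b in wild type was 4.24 times that in R206H, and 6.96 times without R206H library 1. Since it passed the filter on low values through wild type alone, its difference is given as a description, with no test. Its R206H values rested on 27, 11 and 4 estimated reads, so the size of that ratio is uncertain.

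Epithelial markers were lower beside these ligands. Their summed level was 545 to 638 TPM in wild type and 197 to 399.7 TPM in R206H, highest of the R206H libraries in library 1, as for Wnt7a and Wnt7b. The lowest R206H library was library 3 for the sum and for Wnt7b, but library 2 for Wnt7a. All 12 markers had a lower mean in R206H. Of the 10 tested, limma called 2 and voom 6, all lower, against 0.79% and 4.12% of all genes called lower. The adhesion gene Epcam, in both counts, and Cldn7, in neither, reached 1 TPM in wild type only, like Wnt7b. The filter itself chose them for being higher there, so their differences are given as a description. The other limma call was the junction gene Cldn3 (adjusted p = 0.0272). Unlike the sum, Cldn3, Epcam and Cldn7 were highest of the R206H libraries in library 3, at 2.235, 0.948 and 0.722 TPM. The rest of the 12 were highest in library 1. The part of epithelial cells in the Wnt7a and Wnt7b values was not tested. Neural and neural crest markers summed to 79.1 to 86.8 TPM in wild type and 102 to 117 TPM in R206H, but without their leading gene Tubb3 the sums were 45.8 to 54.7 and 38 to 39.8 TPM. Mesothelial markers summed to 130.4 to 157 TPM in wild type and 45.9 to 119 TPM in R206H. That gap came from their leading gene Msln, without which the sums overlapped, at 31.5 to 55 and 19.5 to 60.6 TPM, and 3 of the 6 had a higher mean in R206H. Of the 5 tested, limma called Msln lower (adjusted p = 0.0489), and voom called 2, all lower.

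The other expressed ligands overlapped between the genotypes. Wnt9a, with 17.1, 10.5 and 9.94 against 11.3, 8.32 and 8.61 TPM, Wnt10b, with 9.17, 8.68 and 10.5 against 7.55, 8.72 and 6.25, and Wnt10a, with 2.66, 2.64 and 3.71 against 2.22, 1.36 and 2.92, had log2 differences of -0.35, -0.30 and -0.36 (limma adjusted p = 0.348, 0.223 and 0.378). Wnt9a acts in joint formation, and Wnt10a and Wnt10b in hair, tooth, fat and bone. Wnt2b had 6.96, 4.15 and 4.71 against 8.59, 8.59 and 4.52 TPM (log2 difference 0.37, limma adjusted p = 0.417). Wnt11, a non-canonical ligand, had 9.07, 7.32 and 9.4 against 10.7, 9.03 and 7.27 TPM (log2 difference 0.053, limma adjusted p = 0.862), and Wnt5b 4.71, 3.01 and 3.27 against 2.51, 2.93 and 6.16 TPM (log2 difference 0.0050, limma adjusted p = 0.994). The directions of Wnt11 and Wnt5b turned under other settings, and neither showed a difference beyond the spread of its libraries.

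The low ligands were not tested. Wnt1, a canonical ligand of the midbrain and of bone, had 0.0891, 0 and 0 TPM in wild type and 0.503, 0.0883 and 1.18 TPM in R206H, on an estimated 1, 0 and 0 reads against 7, 1 and 16. The genotypes overlapped, since R206H library 2 had no more than wild-type library 1. Wnt6 ranged from 0 to 0.967 TPM over the 6 libraries, and Wnt3 had 1.03, 0.577 and 0.366 against 0.556, 0.546 and 1.6 TPM, and in both the genotypes overlapped. Summed over all 19 ligands, the level was 136, 117 and 119 TPM in wild type and 137, 139.5 and 162 TPM in R206H, so the lowest R206H library was just above the highest wild-type library. Without Wnt16 the sums were 134, 115 and 118 and 133, 132 and 144 TPM, and the genotypes overlapped.

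**Figure D4:**
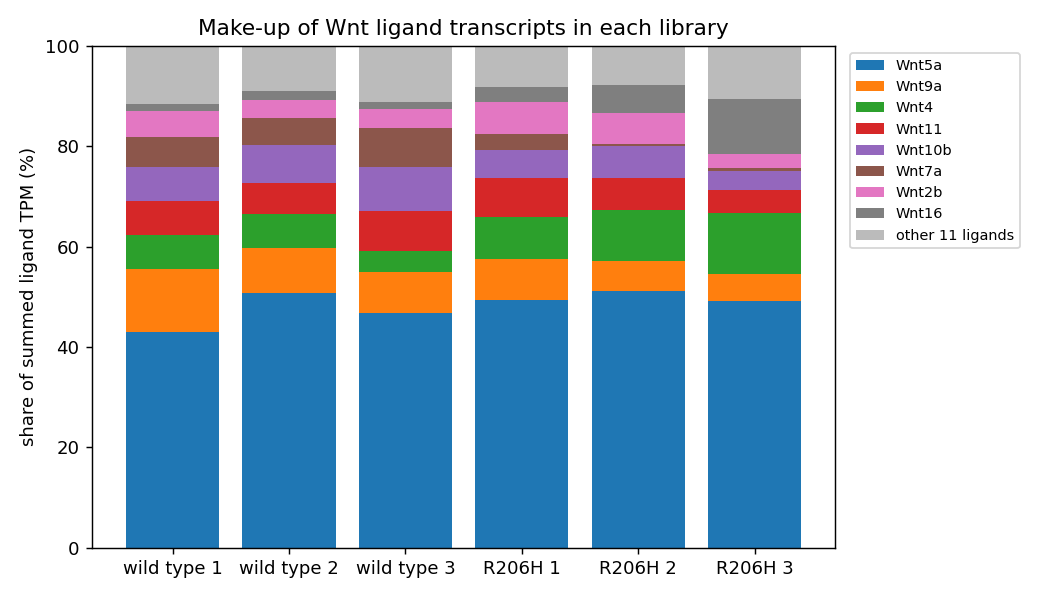
Share of summed Wnt ligand TPM taken by each of 8 ligands and by the other 11 together, in each library, from 0 to 100%. Wnt5a takes 43% to 51.2% in every library, while the share of Wnt16 is larger and that of Wnt7a smaller in the R206H libraries.

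Among the Frizzled receptors, Fzd1 and Fzd2 were higher in R206H and their close relative Fzd7 overlapped. Fzd2, a receptor for Wnt5a and canonical ligands, had 109.8, 93.1 and 86.3 TPM in wild-type libraries 1, 2 and 3 and 129.7, 136 and 172 TPM in R206H libraries 1, 2 and 3. Fzd1 had 78.7, 67.1 and 63.6 and 93.1, 102 and 136 TPM. In both genes no R206H library reached down to a wild-type library, and in each genotype the same library was highest and the same lowest. The ratios of means were 1.51 and 1.58, with log2 differences of 0.59 (SE 0.129, limma adjusted p = 0.0618, voom adjusted p = 0.0275) and 0.64 (SE 0.147, limma adjusted p = 0.0668, voom adjusted p = 0.0305). When genes under 5 TPM were left out of the test, Fzd2 passed (limma adjusted p = 0.0491), as did 5.41% of the 10848 genes then tested. Fzd7 had 131, 126 and 126 against 151, 152 and 127 TPM, with R206H library 3 inside the wild-type range (log2 difference 0.16, SE 0.0778, limma adjusted p = 0.241). The ratio of Fzd2 to Fzd7 was 0.837, 0.738 and 0.687 in wild type and 0.859, 0.893 and 1.35 in R206H.

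In the other Frizzled subfamilies differences were smaller or mixed. Fzd8, with 19.6, 22.2 and 21.8 against 23.7, 26.4 and 29.3 TPM, did not overlap (log2 difference 0.30, limma adjusted p = 0.117), whereas its close relative Fzd5 overlapped, at 9.81, 15.3 and 13.503 against 12.3, 12.8 and 12.7 TPM (log2 difference -0.0070, limma adjusted p = 0.983). Fzd4, which also serves norrin in blood vessels, had 19, 15 and 12.7 against 18.7, 22.6 and 23.6 TPM, with 1 R206H library below wild-type library 1 (log2 difference 0.46, limma adjusted p = 0.125). Its relatives Fzd9, with 3.98, 4.64 and 7.29 against 2.76, 3.48 and 3.14 TPM, and Fzd10, with 2.09, 0.864 and 2.08 against 1.37, 0.904 and 2.65 TPM, did not share that direction. Fzd9, known from bone formation, was lower in every R206H library than in any wild-type library (log2 difference -0.58, limma adjusted p = 0.149). Fzd10 overlapped and turned direction under other settings (log2 difference -0.035, limma adjusted p = 0.957), as did Fzd5. The polarity receptors Fzd3 and Fzd6 had 7.67, 5.98 and 6.96 against 8.53, 8.94 and 7.49 TPM and 21.4, 19.8 and 21.3 against 18.2, 19.8 and 17.6 TPM, in opposite directions and with overlap (log2 differences 0.25 and -0.16, limma adjusted p = 0.267 and 0.251). All 10 Frizzleds together summed to 491 ± 36.3 TPM in R206H and 378 ± 22.3 TPM in wild type (SD, n = 3), most of it from Fzd1, Fzd2 and Fzd7.

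The canonical co-receptors had small differences. Lrp5, whose loss lowers bone mass, had 48, 42.8 and 45.1 TPM in wild type and 47.1, 45.4 and 54.2 TPM in R206H (log2 difference 0.11, SE 0.0847, limma adjusted p = 0.469). Lrp6 had 29.1, 23.9 and 25.4 and 28.6, 31.1 and 32.3 TPM (log2 difference 0.23, SE 0.0925, limma adjusted p = 0.18). Both overlapped between the genotypes, with Lrp6 higher in 2 R206H libraries than in any wild-type library.

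Around the family, genes of the pathway were read in 8 lists with 92 distinct genes tested, of which 8 were higher and 1 was lower in R206H with limma, against 2.04% of all genes. Voom called 23, against 8.73% of all genes. By list, voom called 5 surface partners, 4 antagonists, 4 TCF/LEF genes, 4 polarity genes, 2 of the R-spondin module and 1 feedback target, all higher, 1 higher and 2 lower for secretion and 1 in each direction among transducers. A gene in 2 lists is counted in each. Among surface partners of Wnts and their receptors, 2 of 13 were higher, the glypican genes Gpc3 (225 ± 44.4 against 113 ± 12.8 TPM, SD, n = 3, log2 change 0.97, limma adjusted p = 0.0462) and Gpc6 (log2 change 0.53, adjusted p = 0.0476), which encode heparan sulfate proteoglycans that hold Wnts at the cell surface. The list had a median of 0.24. Not past the threshold were Sdc1, Ptk7 and Reck, with log2 differences of 0.44, 0.58 and 0.59 (limma adjusted p = 0.0668, 0.071 and 0.0783). Ptk7, a polarity co-receptor, was abundant, at 409.7 ± 64.6 against 274 ± 40.9 TPM. In the R-spondin module, which controls how long Frizzleds stay at the membrane, 2 of 7 were higher (median 0.71). These were the R-spondin receptor gene Lgr4 (49.4 ± 7.66 against 24 ± 1.58 TPM, log2 change 1.00, limma adjusted p = 0.0344) and Rspo2 (log2 change 1.36, adjusted p = 0.0476). Rspo1, Lgr6 and Rnf43 had values of 0.71, -0.44 and 0.51 that did not pass.

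Of 12 secreted antagonists, 2 were higher, Sfrp1 and the Wnt deacylase gene Notum, with log2 changes of 1.11 and 1.37 (limma adjusted p = 0.0402 and 0.0454) and a list median of 0.48. Not past the threshold were Sfrp4, Frzb and Dkk3, at 1.73, 0.82 and 1.08 (limma adjusted p = 0.0652, 0.0775 and 0.086). For Wnt secretion, 1 of 8 was lower, Vps26a of the retromer that recycles the Wnt carrier Wls (75.5 ± 2.47 against 95.6 ± 4.41 TPM, log2 change -0.34, limma adjusted p = 0.0476). Wls itself had 98.8 ± 4.17 against 80.8 ± 6.24 TPM and did not pass (log2 value 0.29, adjusted p = 0.0731), nor did Vps35 and Tmed5 (-0.20 and -0.44), and the median was -0.025. Among 14 planar cell polarity genes 1 was higher, Daam2, a formin that links Dishevelled to actin (log2 change 0.63, limma adjusted p = 0.0476, list median 0.22). Prickle3 and Vangl2 had values of 0.64 and 0.41 that did not pass.

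Of 22 cytoplasmic transducers 1 was higher, the Dishevelled-binding gene Dact3 (log2 change 0.75, limma adjusted p = 0.0476), and the median was 0.077. Csnk1e, Amer1 and Tnks had values of -0.24, 0.34 and 0.19 that did not pass. None of 13 TCF/LEF factors and partners passed with limma, and 8 had an unadjusted p under 0.05, against 26.1% of all genes. The median was 0.31. The corepressor gene Tle2, Ctnnbip1 and Bcl9l had values of 1.14, 0.38 and 0.46 (limma adjusted p = 0.0726, 0.078 and 0.0815). Of 11 beta-catenin feedback targets 1 was higher, Notum, which is also among the antagonists, and Nkd1, Tnfrsf19 and Rnf43 had values of 0.45, 0.56 and 0.51 that did not pass (list median 0.40). The median over all genes tested was 0.022. With single libraries left out, limma called 5 of the 92 genes without wild-type library 1, 10 without R206H library 1 and 0 without any one of the others, settings in which it called 288, 722 and at most 5 of all 14818 genes. Beside these lists, epithelial markers were lower and mesenchymal markers higher in R206H as given above, and the share of TPM from the mitochondrial genome was 4.16% to 4.57% in wild type and 3.43% to 3.85% in R206H. The part of these in the calls was not tested.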

How the data were processed

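Total RNA of 3 wild-type and 3 R206H fibroblast cultures was sequenced after rRNA depletion as paired reads of 150 bp, per the labels' protocols. The authors deposited TPM for Ensembl genes, and each library sums to 1000000. The submitters' processing notes name STAR, Trimmomatic, featureCounts (Subread) and DESeq2 without roles or versions, and GRCm38 and mm10 as builds. The strand setting is not given in the sources used here. Total RNA also holds unspliced RNA, and TPM is a share of each library.

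Reads were estimated from TPM and exon-union lengths of GENCODE M21, which 49056 of 49315 genes matched. Within 0.05, 91.1% to 91.5% of values under 100 reads came out whole. The 14818 genes that reached TPM 1 in 3 or more libraries were tested by limma 3.58.1 (R 4.3.3) on log2(TPM + 1), without covariates (trend, two-sided, Benjamini-Hochberg adjustment at 0.05 over all genes). voom was run on the rebuilt reads. Python 3.11.15, pandas 2.3.3 and matplotlib 3.10.9 were used for joining and plotting, and the tests were tested on simulated data.

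The members, lists and alternatives were chosen with earlier results of these data known. Text names every member, each list gene past the threshold and up to 3 others with the smallest p per list. Pdgfra, Prrx1, Cldn3, Cldn7, Epcam and Gm2670 were named after their values were seen. Alternatives changed the pseudocount, filter, scaling, trend, library weights, replicate block, test and libraries used.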

Additional observations from a re-analysis of the deposited data

How the results depend on the processing

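Of 478 values of the 27 expressed members under the 18 alternatives, 436 kept direction and side of the threshold, 23 newly passed it and 19 reversed, the last in Fzd5, Fzd10, Wnt5b and Wnt11. Members past the threshold, 0 with limma, numbered 1 with a filter at TPM 5, 10 with library weights (9 higher, 1 lower, against 12.9% of all genes), 7 with voom and 9 at an adjusted p under 0.10, and 0 to 5 with single libraries left out. The 9 pathway list genes, where 303 of all 14818 genes were called, became 4 with a pseudocount of 0.1 (129 of all genes). They became 0 with no filter (2 of 27190 genes), 0 without the trend (27 of 14818) and 0 without replicate 2 of both genotypes (0 of 14818). With library weights they were 28 (1906 of 14818), with voom 23 (1290 of 14785) and at an adjusted p under 0.10 25 (1787 of 14818). With single libraries left out they were 0 to 10. With the replicate number as a block, 0 members, 0 list genes and 0 of all genes passed. Correlations of deviations between same-numbered libraries were 0.018, 0.0599 and -0.0283, so the numbers are not shown to pair libraries. Expressed members numbered 24 to 29 at other thresholds and 26 to 27 with a library left out, and silent members 2 at 0.05 TPM and 4 otherwise. With single libraries left out, the log2 difference ran from -0.18 to 0.12 for Fzd5, -0.30 to 0.17 for Fzd10, -0.31 to 0.20 for Wnt5b and -0.069 to 0.18 for Wnt11. Without replicate 2 of both genotypes it was 0.11 for Fzd5 and -0.054 for Wnt11. For Wnt5b it was -0.0086 with a pseudocount of 0.1, -0.015 with median-of-ratios scaling, -0.055 with quantile normalization, -0.0035 rescaled without the 50 most abundant and the mitochondrial genes and -0.068 with library weights. The cause of these shifts was not tested. Depth limits ligands under about 1 TPM most, where a value rests on at most 28 reads.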
